A study of Rattus norvegicus with 12 samples.

Results

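The genes described here are 7 regulators of embryonic patterning and cell identity whose transcripts were lower after stimulation in each of 3 experiments on cultured aortic smooth muscle cells. They are the homeobox genes Hoxa5 and Hoxb4, the T-box gene Tbx5, the Wnt receptor gene Fzd8, the E protein gene Tcf4 and the zinc finger genes Zfp462 and Rreb1. They were selected on their measured signals, which were lower after stimulation in all 3 experiments, so their responses are given as a description, with no test. On the arrays they are 7 of 14217 genes with a probe set of exactly 1 symbol, and they hold 9 of 31042 probe sets, with a pair each for Tcf4 and Zfp462. All 9 probe sets passed the filter on dim signals. Zfp462 and Rreb1 belong to none of the homeobox, T-box, Wnt receptor and E protein families, and Fzd8 is a receptor and not a transcription factor.

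Aortic smooth muscle cells of newborn rats were grown in primary culture and held overnight without serum, and transcripts were measured on 1-colour arrays. There were 12 arrays in 6 groups of 2. For 120 min, stimulated cells had thrombin (2 U/ml), TRAP (25 µM), a peptide that activates a thrombin receptor, or TRAP (25 µM) following 24 h of pertussis toxin (PTX, 200 ng/ml). Each stimulated group has its own basal group. Thrombin is a clotting protease that activates its receptors by cutting them, whereas TRAP needs no cut, and PTX blocks signalling through Gi proteins. All 3 basal groups are labelled as having had no agent, so whether the basal cells of the PTX experiment had PTX is not stated. Nothing in the labels says that the 2 arrays of a group came from separate cultures, so the spread between them may be technical.

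Hox proteins bind DNA through a homeodomain and give cells their position along the head-to-tail axis. T-box proteins specify lineages of the heart, limbs and other organs. Frizzled proteins are the cell surface receptors of Wnt ligands. E proteins are basic helix-loop-helix factors that bind the E-box sequence as dimers, and Id proteins hold them in dimers that cannot bind DNA. Smooth muscle cells from different stretches of the aorta have different embryonic origins and keep different sets of such factors in culture.

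The smooth muscle markers Acta2 and Tagln were among the bright signals, with means of 7221 and 5561 over the 12 arrays, and all 8 smooth muscle markers passed the filter. The markers of mature contractile cells Myh11 (50.7) and Des (28.9) were dim. Pecam1, of endothelial cells, and Ptprc, of leukocytes, had mean signals of 4.24 and 4.28, close to 0. Of 5 endothelial markers on the array 1 passed the filter, Tek, with a mean of 45.4 (20.1 to 85.7). Of 5 leukocyte markers 0 passed. Of 5 fibroblast markers 4 passed the filter, with mean signals of 5431 for Mfap5, 1720 for Dcn, 239 for Pdgfra and 98.2 for Lum, and Dpt (16.2) did not. Array medians were between 39.5 and 53.4, and replicate arrays correlated at 0.983 to 0.991 over the tested probe sets. The 8 arrays of the TRAP experiments fall into 2 sets of 4 that cut across the labels of the stimulated arrays. The acute-phase gene Saa3 was at 15.9 to 22.8 in the first and at 222.5 to 420.9 in the second. Both basal TRAP arrays are in the first set and both basal arrays of the PTX experiment in the second. For basal cells the sets and the labels therefore coincide. TRAP replicate 1 and TRAP after PTX replicate 1 are not in the set that holds their basal arrays, and the values of the 7 genes are given with and without them, as are the list counts they change. Whether these 2 arrays were exchanged with each other cannot be told from the labels. In bulk samples like these, fewer cells of a type and less RNA per cell cannot be told apart.

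Promoter sequences of 300 bases from RefSeq (build GRCr8) were on hand for 4 of the 7 genes, Tbx5, Fzd8, Tcf4 and Rreb1. Each window runs from 250 bases before the gene's start to 50 after it. E-boxes (CANNTG, which reads the same way on both strands) were searched because Tcf4 binds this sequence, and they were found in the windows of Tbx5 and Rreb1. Of the 7 genes Tbx5 had the lowest fitted change with thrombin and Rreb1 with TRAP. With TRAP after PTX it was Zfp462, whose promoter was not on hand. The sequences of Tbx5 and Rreb1 are printed 5′ to 3′ on the gene's strand with the E-boxes in capitals. The Tbx5 window is chr12:42395310-42395609 and the Rreb1 window is chr17:27208012-27208311, both on the minus strand.
Tbx5: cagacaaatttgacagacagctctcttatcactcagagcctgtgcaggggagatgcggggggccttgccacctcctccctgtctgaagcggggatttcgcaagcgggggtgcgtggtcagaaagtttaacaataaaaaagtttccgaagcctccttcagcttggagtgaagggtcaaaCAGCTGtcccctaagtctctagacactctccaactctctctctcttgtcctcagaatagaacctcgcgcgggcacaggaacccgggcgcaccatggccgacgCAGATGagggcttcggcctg
Rreb1: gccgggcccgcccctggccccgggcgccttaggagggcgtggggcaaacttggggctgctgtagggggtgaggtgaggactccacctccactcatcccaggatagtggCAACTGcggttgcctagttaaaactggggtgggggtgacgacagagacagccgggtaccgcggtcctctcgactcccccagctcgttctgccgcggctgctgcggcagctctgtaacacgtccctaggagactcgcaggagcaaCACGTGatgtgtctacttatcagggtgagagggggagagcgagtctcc
The Tbx5 window holds CAGCTG and CAGATG, and the Rreb1 window holds CAACTG and CACGTG. Of these, CAGATG (bases 30 to 35 from the start) and CACGTG (bases 2 to 7) lie after the start and not upstream of it. An E-box is common in windows of this length: 72.1% of 33469 promoters hold at least 1. The GC box GGGCGG was in 2 of the 4, against 33.1% of all promoters. No match was found in the 4 windows for the AP-1 letters TGANTCA (7.33% of all promoters), the cyclic AMP response element TGACGTCA (1.83%), the Egr letters GCGNGGGCG (4.98%), the CArG box (1.64%), the homeodomain core TAATTA (5.36%), the T-box letters AGGTGTGA (1.1%), the TCF and LEF letters CTTTGAA (5.4%), the forkhead letters GTAAACA (3.78%) or TATAAA (14.2%), on either strand. The windows of Fzd8 and Rreb1 had GC contents of 65.3% and 64.7%, that of Tbx5 56.0% and that of Tcf4 39.7%, beside a median of 51.7% over all promoters.

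In all 27 pairings of a member probe set with an experiment, both stimulated arrays lay below both basal arrays. That pattern is frequent on these arrays, being met by 28.6% of all tested probe sets in the thrombin experiment, 29.4% in the TRAP experiment and 27.1% in the TRAP after PTX experiment, and by 6.16% in all 3. The median change of the 7 genes, each taken by its brighter probe set, was -0.70, -0.69 and -0.64 on the log2(signal + 16) scale, beside medians of -0.06, -0.03 and -0.04 over all 9906 genes tested. Of the 9 probe sets, 7, 8 and 7 were past an adjusted p of 0.05 on the lower side (limma with Benjamini-Hochberg adjustment), where 2.1%, 2.07% and 1.03% of all tested probe sets were. These counts restate the choice of the genes. Probe sets past that threshold on the lower side in all 3 responses number 27 (0.145% of those tested), and they name 23 genes. The 7 genes described here are among them, and the others include the BMP pseudoreceptor gene Bambi and the Krüppel-like factor gene Klf15.

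**Figure D1:**
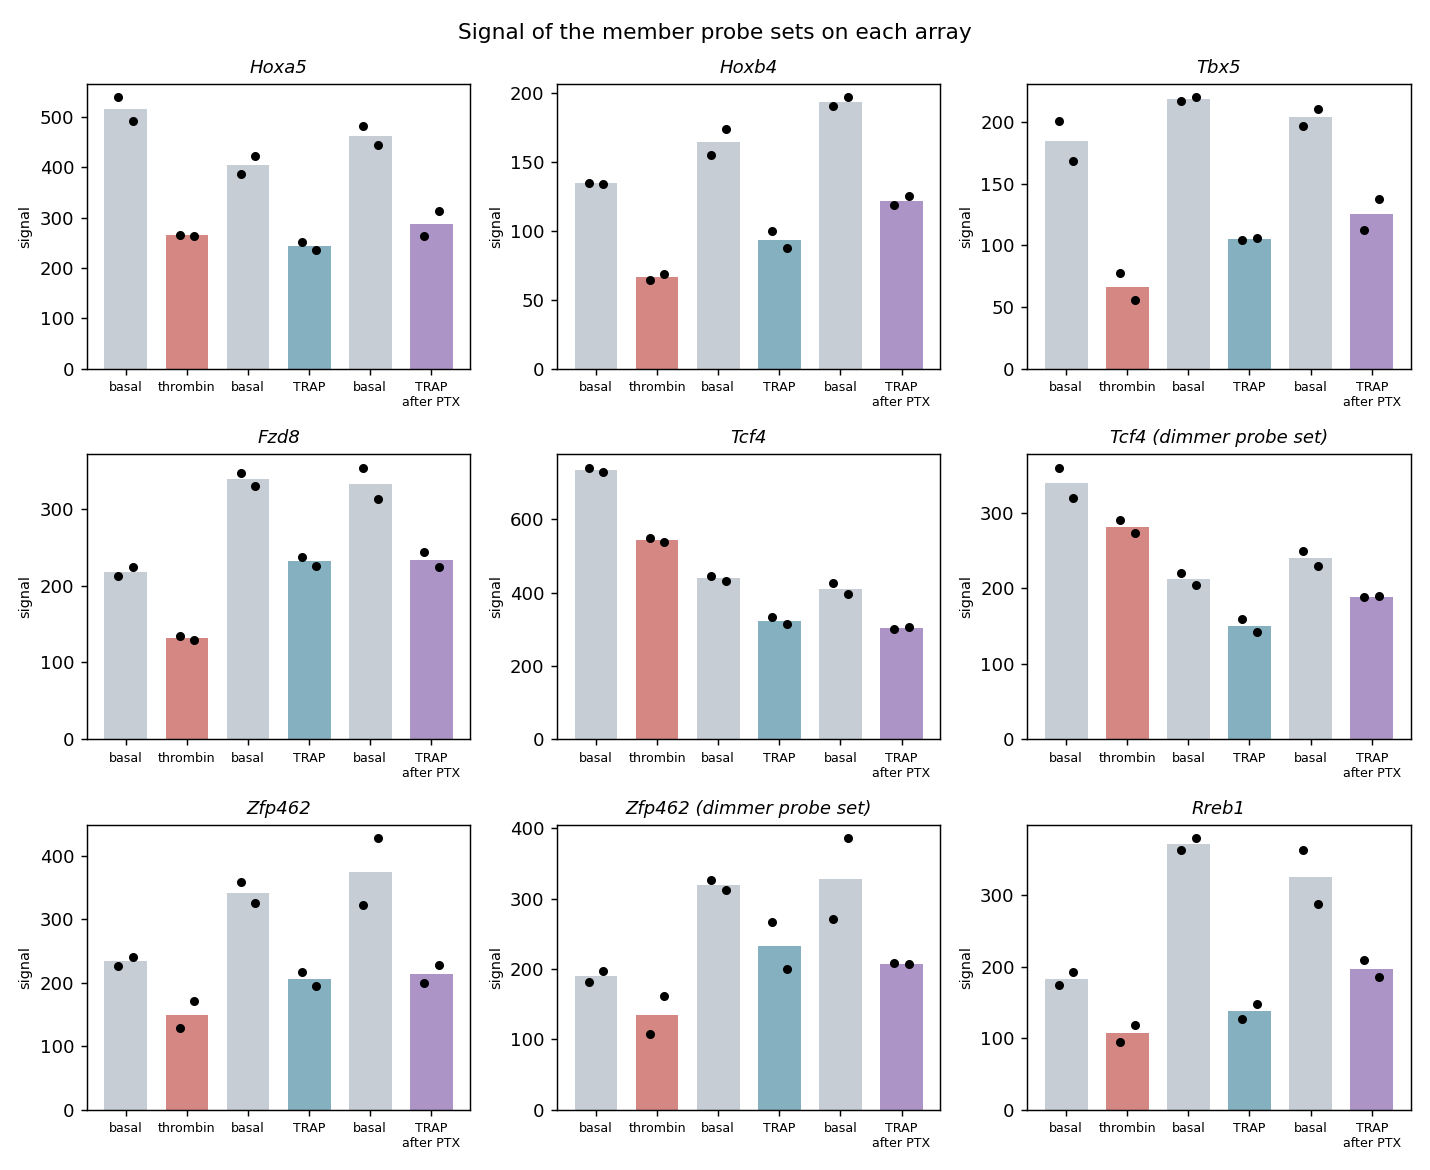
Signal (linear array intensity, vertical axis from 0) of the 9 probe sets of the 7 genes in the 6 groups, in the order basal and stimulated for the thrombin, TRAP and TRAP after PTX experiments. Points are single arrays and bars are means of 2 arrays, and in every panel both points of each stimulated group lie below both points of the basal group to its left.

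Hoxa5, a Hox gene known from mouse mutants for its part in the lung and the neck and upper chest skeleton, gave signals of 538.7 and 491.2 on the basal arrays of the thrombin experiment and 265.6 and 263.8 after thrombin. Its signals in the TRAP experiment were 387.1 and 422.0 on basal arrays and 251.6 and 236.4 after TRAP. In the PTX experiment they were 481.1 and 444.1 on basal arrays and 263.1 and 313.2 after PTX and TRAP. All 6 stimulated arrays lay below all 6 basal arrays. The stimulated mean was 51.4% of the basal mean with thrombin, 60.3% with TRAP and 62.3% with TRAP after PTX, or log2 changes of -0.92, -0.69 and -0.66 (each ± 0.11 SE, n = 2 arrays a group). The basal means differed among experiments more than the stimulated means did: from 405 to 515 against 244 to 288.

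Hoxb4, which in mouse is known for blood stem cell growth as well as axial patterning, was the dimmest member, with a mean signal of 129 over the 12 arrays. Its basal signals were 135.0 and 134.2 in the thrombin experiment, against 64.1 and 68.7 after thrombin. Those in the TRAP experiment were 155.4 and 173.8, against 100.2 and 87.3 after TRAP. The PTX experiment had 190.4 and 197.0 on basal arrays and 118.6 and 125.4 on stimulated ones. No 2 of the 6 groups overlapped, and again every basal array was above every stimulated array. The remaining signal was 49.3%, 57.0% and 63.0% of basal in the order thrombin, TRAP and TRAP after PTX. The fitted changes were -0.87, -0.72 and -0.60 (± 0.13 SE).

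Tbx5 encodes a T-box factor needed for the heart and forelimb, and its loss on 1 allele causes Holt-Oram syndrome in humans. Its signal was 201.0 and 168.6 on the basal arrays of the thrombin experiment and 77.7 and 55.6 after thrombin. Basal arrays of the TRAP experiment gave 217.3 and 220.1, against 104.5 and 105.7 after TRAP. The PTX experiment gave 197.1 and 210.4 without stimulation and 112.5 and 137.8 with it. The 6 basal arrays lay between 168.6 and 220.1, while the 3 stimulated groups stood apart from each other in the order TRAP after PTX, TRAP and thrombin from high to low. What remained was 36.1% of the basal signal with thrombin, 48.1% with TRAP and 61.4% with TRAP after PTX. On the log2 scale these were -1.29, -0.95 and -0.64 (± 0.16 SE). In the thrombin response only 6 of the 9906 genes had a lower fitted change than Tbx5, which ranked 7, 36 and 203 in the 3 responses.

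Fzd8, a Frizzled receptor for Wnt ligands, had basal signals of 211.8 and 224.3 in the thrombin experiment and 134.2 and 129.7 after thrombin. The TRAP experiment gave 346.9 and 329.8 on basal arrays and 236.9 and 225.7 after TRAP. In the PTX experiment the values were 353.3 and 312.0, then 243.0 and 223.8. The signal that remained was 60.5%, 68.4% and 70.2% of basal, with log2 changes of -0.66, -0.52 and -0.48 (± 0.11 SE). Its level differed by experiment as well as by stimulation. The basal arrays of the thrombin experiment (211.8 and 224.3) were as low as the stimulated arrays of the TRAP and PTX experiments, which lay between 223.8 and 243.0.

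Tcf4 here is the E protein gene, whose loss on 1 allele causes Pitt-Hopkins syndrome in humans, and not Tcf7l2, the Wnt pathway factor that is also called TCF4. Its brighter probe set gave 740.6 and 729.4 on the basal arrays of the thrombin experiment and 547.9 and 538.0 after thrombin. The TRAP experiment had 446.0 and 431.7, then 333.4 and 314.4 after TRAP. Basal arrays of the PTX experiment gave 425.4 and 395.1, and stimulated ones 300.1 and 306.7. Of the 7 genes it had the smallest changes, and they were nearly equal: 73.9%, 73.8% and 74.0% of basal, or -0.43, -0.42 and -0.42 (± 0.09 SE). Thrombin-stimulated cells still had more Tcf4 signal (mean 543) than the basal cells of both other experiments (439 and 410). The dimmer Tcf4 probe set, with a mean of 236 over the arrays, was at 83.0%, 70.8% and 78.7% of basal. Its changes were -0.25, -0.46 and -0.32 (± 0.12 SE), so the pair of probe sets had the same direction but not the same order of experiments.

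Zfp462 encodes a large zinc finger protein, and loss of its human counterpart ZNF462 on 1 allele causes a disorder of development. Its brighter probe set gave 227.2 and 240.5 on the basal arrays of the thrombin experiment and 128.2 and 170.9 after thrombin. Values in the TRAP experiment were 358.9 and 325.1 before and 217.3 and 194.3 after TRAP. The PTX experiment had 322.4 and 427.8 without and 200.3 and 227.8 with stimulation. Replicates of this gene lay farther apart than those of the other members, as 322.4 against 427.8 shows, and 3 of its groups (basal thrombin, TRAP after PTX and TRAP) overlapped in sequence. The remaining signal was 64%, 60.2% and 57.1% of basal, with changes of -0.61, -0.69 and -0.76 (± 0.15 SE). The dimmer probe set stood at 71.0%, 73.0% and 63.3% of basal, with changes of -0.47, -0.44 and -0.60 (± 0.19 SE).

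Rreb1 is a zinc finger factor that binds Ras-responsive promoter elements and works with SMAD proteins in TGF-beta responses of epithelial cells. It had, together with Tbx5, the widest differences between experiments in the share of basal signal left. Its signal was 173.5 and 192.3 on the basal arrays of the thrombin experiment and 94.6 and 119.0 after thrombin. With TRAP it went from 362.8 and 379.1 to 126.9 and 148.1. In the PTX experiment it was 362.6 and 286.7 on basal arrays and 209.2 and 184.7 on stimulated arrays. TRAP left 37.1% of the basal signal, thrombin 58.4% and TRAP after PTX 60.7%. The log2 changes were -1.34 with TRAP, which ranked 7 from the lowest of 9906 genes, -0.70 with thrombin and -0.67 with TRAP after PTX (± 0.15 SE). Stimulated cells of the PTX experiment (mean 197) had as much signal as basal cells of the thrombin experiment (mean 183), with overlapping arrays.

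**Figure D2:**
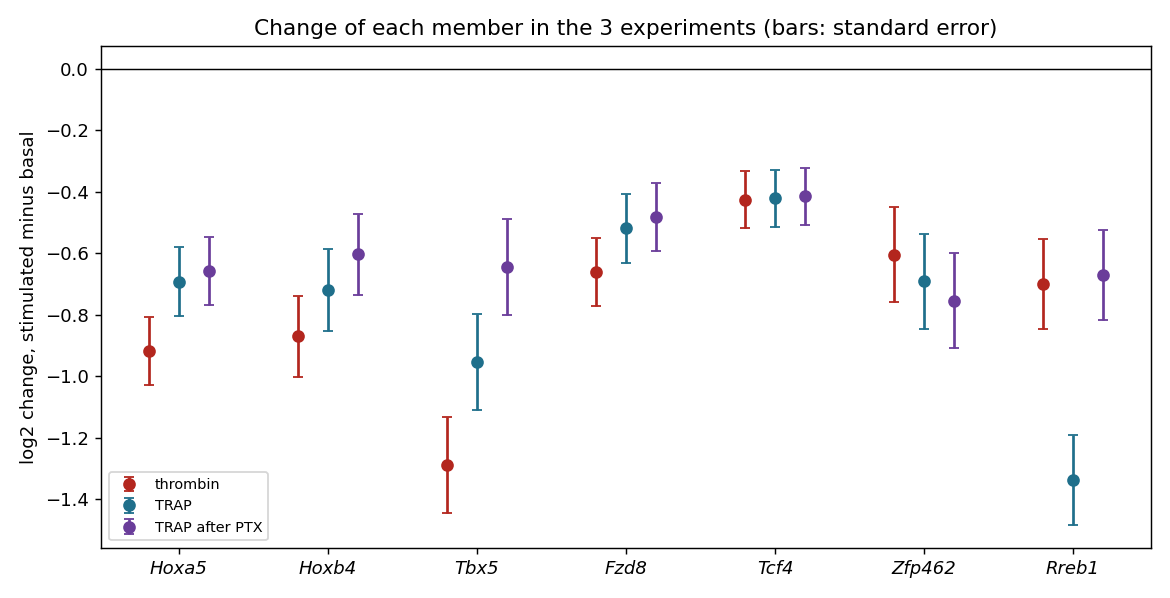
Change of each gene (its brighter probe set) in each experiment as log2(signal + 16), stimulated minus basal, with bars of 1 standard error from the limma fit. All 21 points lie below 0, from -0.42 for Tcf4 to -1.34 for Rreb1 with TRAP.

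Values without TRAP replicate 1 and TRAP after PTX replicate 1 kept their direction in each of the 7 genes. That was fixed in advance, since every stimulated array of these genes lay below both of its basal arrays. The TRAP responses were then between -0.46 (Tcf4) and -1.24 (Rreb1), and those after PTX between -0.40 (Tcf4) and -0.75 (Rreb1). By limma none of the 9 probe sets then passed the adjusted threshold in the TRAP after PTX response. In the TRAP response 4 did. The background share of probe sets past the threshold on the lower side was then 0.242% and 1.37%. All 9 had an unadjusted p under 0.05 in both responses of that fit, which their choice favours. With all arrays in the fit 16.9% (TRAP after PTX) and 16.3% (TRAP) of all tested probe sets, both directions together, had such a p. A block for the 2 sets of arrays left 2 of 9 after PTX (background 0.784%), 7 with thrombin (2.58%) and 8 with TRAP (2.09%). The counts also depended on single arrays, here with the background share of the same fit in parentheses. In the thrombin response the 7 of 9 became 4 without thrombin replicate 1 (0.51%), and in the TRAP response the 8 became 4 without basal TRAP replicate 1 (0.349%), 2 without basal TRAP replicate 2 (0.591%), 4 without TRAP replicate 1 (1.26%) and 3 without TRAP replicate 2 (0.881%). In the TRAP after PTX response the 7 became 0 without TRAP after PTX replicate 1 (0.209%) and 2 without its replicate 2 (0.499%). It became 2 without basal replicate 1 (0.854%) or 2 (0.236%) of the PTX experiment, and 3 without basal TRAP replicate 1 (0.585%) or 2 (0.591%). In the thrombin experiment the summed signal of the 8 smooth muscle markers was 9866 to 10372 on basal arrays and higher, 11814 to 13542, after thrombin. In the TRAP experiment the 2 groups overlapped, at 15061 to 17545 and 15580 to 17150, and they overlapped after PTX too, at 15097 to 17672 and 17584 to 19491. Mfap5 makes up most of the summed fibroblast signal. The 5 fibroblast markers summed to 5557 to 5558 and 5356 to 5734 in the thrombin experiment, with overlapping groups, as in the TRAP experiment (8350 to 9012 and 8028 to 8887) and the PTX experiment (8249 to 8510 and 8364 to 8457). Pdgfra alone had changes of -0.23, -0.56 and -0.22 with thrombin, TRAP and TRAP after PTX, short of the threshold (limma adjusted p 0.567, 0.112 and 0.574). Taken by cell type, the endothelial, leukocyte and Schwann cell markers summed to at most 108, 75.8 and 33.6 on any array. The part of the smooth muscle marker and Pdgfra differences in the changes of the 7 genes was not tested.

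The differences between responses come from the same arrays and values that chose the genes, and a rule that asks for a lower signal in every experiment limits how far the responses can lie apart. They are therefore given as a description with their 95% intervals and no test. The Rreb1 change was less negative with thrombin than with TRAP by 0.64 ± 0.21 (SE; 0.19 to 1.08). The difference farthest in the other direction was that of Tbx5, at -0.33 ± 0.22 (-0.81 to 0.14). For Hoxa5 the difference was -0.23 (-0.57 to 0.12), for Hoxb4 -0.15 (-0.56 to 0.25) and for Fzd8 -0.14 (-0.48 to 0.20). That of Tcf4 was -0.01 (-0.29 to 0.28) and that of Zfp462 was 0.09 (-0.38 to 0.56). Each interval other than that of Rreb1 holds 0, and those of Hoxa5, Hoxb4, Tbx5 and Zfp462 reach beyond 0.5 on 1 side.

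With PTX before TRAP, the Rreb1 response was 0.67 ± 0.21 (0.22 to 1.11) less negative than with TRAP alone. Without the 2 arrays that lie outside their set the difference was 0.48, and the 2 experiments then lie in different sets of arrays. In the first set Rreb1 was at 148.1 with TRAP and 209.2 with TRAP after PTX. In the second set it was at 126.9 and 184.7, the same direction. Were the TRAP and TRAP after PTX arrays numbered 1 exchanged, the groups would overlap. They would hold 209.2 and 148.1 with TRAP and 126.9 and 184.7 with TRAP after PTX. Both Rreb1 differences use the same 4 arrays of the TRAP experiment, so they are not independent. Tbx5 followed with 0.31 ± 0.22 (-0.16 to 0.79). Its changes with thrombin (-1.29) and with TRAP after PTX (-0.64) were not compared by a fit. The others were between -0.06 for Zfp462 (-0.53 to 0.41) and 0.12 for Hoxb4 (-0.29 to 0.52). Tcf4, with 0.01 (-0.28 to 0.29), had the narrowest interval. Since the PTX state of the basal cells is not stated, these differences may hold an effect of PTX alone, which cannot be told apart here.

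**Figure D3:**
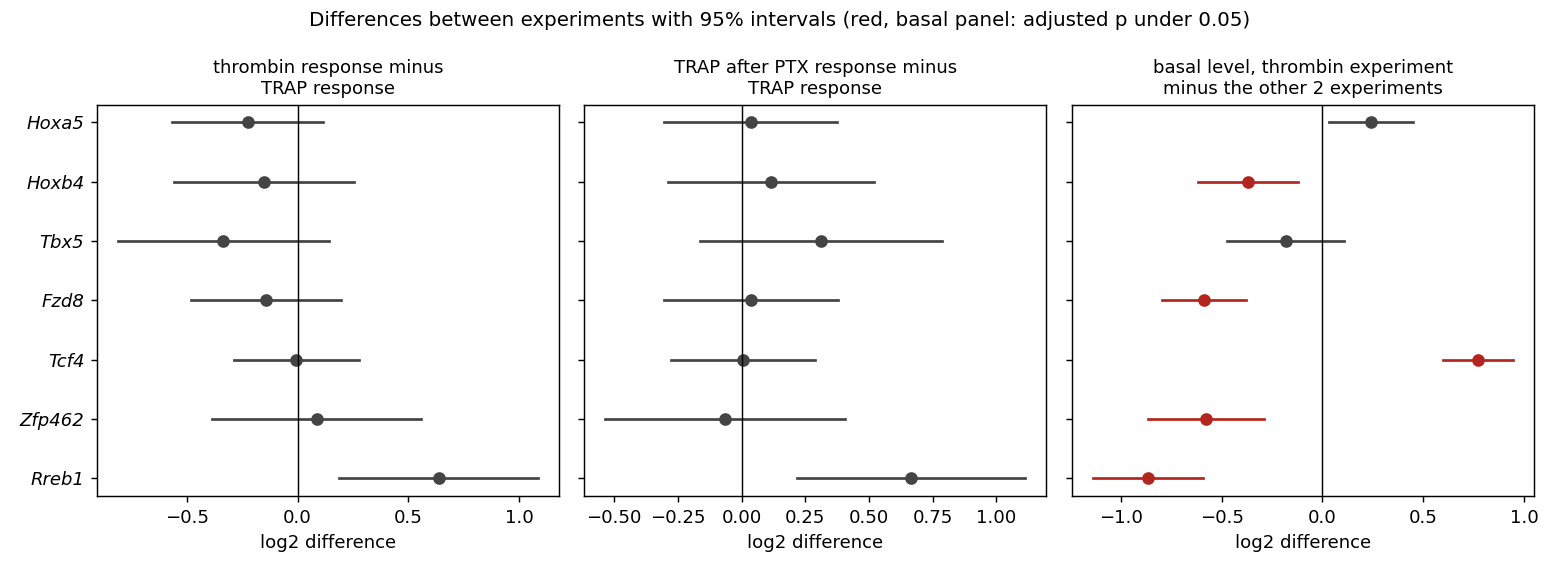
Differences on the log2(signal + 16) scale with 95% intervals for the 7 genes, from left to right the thrombin response less that to TRAP, the response to TRAP after PTX less that to TRAP alone, and the basal level in the thrombin experiment minus the mean basal level of the other experiments. In the left and middle panels the interval of Rreb1 lies above 0 and the others hold 0. In the basal panel red points have an adjusted p under 0.05, those of Hoxb4, Fzd8, Zfp462 and Rreb1 below 0 and that of Tcf4 above 0.

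Basal levels differed between the thrombin experiment and the other experiments. These basal arrays are also the ones subtracted in the responses, so a low basal level, as that of Rreb1 in the thrombin experiment, enters its response too. The choice of the genes used the basal arrays against the stimulated ones, though not against each other. The adjusted p-values here are thus not independent of that choice. Fzd8 (-0.59 ± 0.10, adjusted p 0.000246), Zfp462 (-0.58 ± 0.13, 0.00307) and Rreb1 (-0.87 ± 0.13, 9.39e-05) were lower in unstimulated cells of the thrombin experiment by limma. Hoxb4 was lower by a smaller amount (-0.37 ± 0.12, adjusted p 0.0178). Tcf4 was higher, by 0.77 ± 0.08 (adjusted p 4.51e-06), and its dimmer probe set had the same direction (0.55, adjusted p 0.000503). Hoxa5 at 0.24 (adjusted p 0.0545) and Tbx5 at -0.18 (adjusted p 0.295) did not pass. So 4 of 7 genes were lower and 1 was higher, where 23.4% and 22.5% of all 9906 genes were. A difference of this kind was thus widespread on the arrays, and the experiment cannot be told apart from its culture or array batch. The Hoxb4 call was lost with a block for the 2 sets of arrays (-0.31, adjusted p 0.0716), without basal thrombin replicate 1 (-0.37, 0.0731) or replicate 2 (-0.37, 0.0735), and without basal TRAP replicate 2 (-0.33, 0.0586). Between the basal groups of the TRAP and PTX experiments none of the 9 probe sets differed past the threshold by limma (0.043% of all tested probe sets did). An unadjusted p under 0.05 was found for 0 of the 9, beside 12.3% of all tested probe sets. These basal groups also lie in different sets of arrays, so experiment and set cannot be told apart in this comparison.

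The signals of the 7 genes varied together across arrays to different degrees. As a description over the 12 arrays, which share their libraries between genes, the log2 signals of the 21 gene pairs correlated at -0.30 to 0.93 with a median of 0.83, and the low values were pairs with Tcf4, whose basal level ran the other way. With each experiment centred on its own mean the range was 0.84 to 0.99 with a median of 0.93, a closeness that the choice of genes lowered in every experiment largely fixes. The genes most like the mean of the 7 by this centred measure were Pi4kb (r = 0.987), Rere (0.982), Tmem17 (0.980), Tmem64 (0.979), Harbi1 (0.977), Meis1 (0.973), Rassf7 (0.973), Id1 (0.973), C10h1orf35 (0.973) and Ydjc (0.969). Meis1, a Hox cofactor, and Id1, an inhibitor of E proteins, are thus also in the lists of relatives of the 7 genes. For the single genes the log2 signals were not centred, so the correlations that follow also hold level differences between experiments. Most like Hoxa5 were Rilpl2 (0.960), Tmem17 (0.948) and Nck1 (0.947), and most like Hoxb4 were Napb (0.969), Mblac1 (0.964) and S100a13 (0.963). For Tbx5 they were Zfp266 (0.952), Mrpl16 (0.950) and C15h8orf58 (0.948), and for Fzd8 they were Nfatc3 (0.977), Meis1 (0.974) and Tle1 (0.972). Tcf4 was matched by Ydjc (0.996), Rnf145 (0.985) and Cdk7 (0.978), Zfp462 by Cep57l1 (0.971), Lurap1l (0.969) and Nsd1 (0.959), and Rreb1 by Frat2 (0.967), Osgin2 (0.948) and S100a13 (0.946).

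The relatives of these genes were taken as 11 lists of 293 genes, and 139 genes outside the 7 were bright enough to be tested. Over all genes 2.65%, 1.81% and 1.27% were lower past the threshold in the thrombin, TRAP and TRAP after PTX responses, and 2.97%, 2.15% and 1.69% were higher. An unadjusted p under 0.05 by limma, both directions together, was reached by 18%, 16.3% and 16.9% of all tested probe sets. The unadjusted counts of the lists below are to be read beside these shares. Of the 139 genes, 51 (36.7%) had a change below 0 in all 3 responses, beside 28.7% of all genes. By limma 0 of the 139 were lower past the threshold in all 3 responses, 10 were in 2 of them and 12 were in 1. The 0 is largely fixed by the choice, since the 7 were picked from these families for being lower in all 3. The genes lower in 2 of 3, which stand just outside the rule that chose the 7, were Meis1, Meox2, Hey2, Fzd2, Fzd6, Nkd2, Tle1, Id1, Id2 and Trps1.

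Few other Hox genes could be tested. Of 37 further Hox genes 20 were on the array and 4 were bright enough to test, and 0 of 4 passed in any response by limma, with 0, 1 and 0 at an unadjusted p under 0.05 in the thrombin, TRAP and TRAP after PTX responses. Hoxb2, the brightest at a mean signal of 756, changed by -0.06, 0.06 and 0.19 with thrombin, TRAP and TRAP after PTX, and Hoxa10 by -0.08, -0.28 and -0.34. Hoxb3 (-0.15, -0.52 and -0.21) and Hoxa7 (-0.45, -0.52 and -0.27) were below 0 in each response, short of the threshold. With a block for the 2 sets of arrays Hoxb3 passed with TRAP (-0.69, adjusted p 0.0377), and without the 2 arrays outside their set it did not (-0.75, adjusted p 0.0597). Medians of the 4 were -0.11, -0.40 and -0.24. Among 7 Hox cofactors, the TALE homeobox gene Meis1, a DNA-binding partner of Hox proteins, fell with thrombin (-0.58, adjusted p 0.000736) and with TRAP (-0.38, adjusted p 0.0158), and its value after PTX was -0.28. The brightest cofactor gene, Pbx3, had -0.03, 0.00 and -0.46. Cofactor medians were -0.04, 0.12 and -0.13.

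Of 14 other homeobox genes, Meox2, a mesenchymal factor known to hold back vascular smooth muscle growth, fell with TRAP (-1.02, adjusted p 0.000813) and with TRAP after PTX (-0.59, adjusted p 0.0370). Tshz1 fell with thrombin (-0.78, adjusted p 0.0124). Their list had medians of -0.12, -0.01 and -0.09. Among 4 further T-box genes Tbx18, a factor of epicardial and mural cells, fell with thrombin (-1.0, adjusted p 0.00746) and had -0.32 with TRAP and -0.64 after PTX. The median of the T-box genes was -0.35, -0.33 and -0.17. In the list of 22 heart and vessel lineage factors 4 fell with thrombin, 1 with TRAP and 0 after PTX by limma (9, 5 and 6 lower at an unadjusted p under 0.05). These counts were 6, 2 and 1 with a block for the sets of arrays and 3, 1 and 1 without the 2 arrays outside their set. Of all 9906 genes 329, 161 and 95 were lower with the block, and 248, 109 and 28 without the 2 arrays. The list had medians of -0.22, -0.13 and -0.04. The Notch target Hey2 fell with thrombin (-0.71, adjusted p 0.0142) and TRAP (-1.0, adjusted p 0.00195). Nr2f2 (-0.76), which marks venous and atrial identity, Sox4 (-0.83) and Wt1 (-0.60) fell with thrombin at adjusted p of 0.0103, 0.00951 and 0.0449.

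Wnt receptors and co-receptors beside Fzd8 fell at counts of 2, 2 and 2 of 10 tested, with medians of -0.27, -0.27 and -0.33. Fzd2 fell with thrombin (-0.72, adjusted p 0.00199) and TRAP after PTX (-0.52, 0.0282), and Fzd6 with TRAP (-0.56, 0.0145) and TRAP after PTX (-0.53, 0.0271). Fzd1 fell with thrombin (-0.74, 0.0369) and Fzd4 with TRAP (-0.96, 0.00846). The co-receptor-like gene Ptk7, the brightest of the list, had 0.09, 0.21 and -0.14. Without TRAP replicate 1 and TRAP after PTX replicate 1 the counts were 2, 0 and 0, with medians of -0.27, -0.22 and -0.21, and with a block for the sets they were 2, 3 and 1. Without the arrays 157 and 109 of all genes were higher and lower with TRAP and 83 and 28 after PTX. Among 8 genes of Wnt ligands and their secretion, Wnt4 rose with TRAP (0.75, adjusted p 0.00707) and Wnt9a fell after PTX and TRAP (-1.27, 0.00114), with list medians of -0.03, -0.20 and 0.02. Of 7 inhibitor genes 1 passed, Nkd2, which fell with TRAP (-0.63, 0.00994) and TRAP after PTX (-0.76, 0.00417), with list medians of -0.32, -0.10 and -0.02. With thrombin 0 of 7 passed by limma (2 lower and 1 higher at an unadjusted p under 0.05), and 1 was lower with either treatment of the sets.

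In the list of 26 beta-catenin pathway genes and targets, the corepressor gene Tle1 fell with thrombin (-0.60, adjusted p 0.0121) and TRAP (-0.52, 0.0326), and the feedback gene Axin2 fell with thrombin (-0.86, 0.0292). Myc rose with thrombin (1.08, 0.000114). Ctnnb1, which encodes beta-catenin and had a mean signal of 5632, stayed within -0.09 and 0.05. After PTX 0 of 26 passed by limma, with 7 lower and 3 higher at an unadjusted p under 0.05. With a block for the sets of arrays 1 was lower after PTX and 0 with TRAP, and without the 2 arrays 0 were lower in both. List medians were -0.09, -0.14 and -0.11. The Id genes, whose proteins bind E proteins such as Tcf4, moved in opposite directions. Id3 rose in all 3 responses (1.54, 1.58 and 1.14, with adjusted p of 1.19e-06, 1.84e-06 and 4.24e-05). Id2 fell with thrombin (-1.22, 0.00104) and TRAP (-1.95, 3.38e-05), and Id1 fell with thrombin (-0.62, 0.0115) and TRAP (-0.50, 0.0417). Bhlhe40, a transcriptional repressor, rose with thrombin (0.82, 0.00659) and TRAP after PTX (0.78, 0.0144). The related E protein gene Tcf12 had -0.06, -0.18 and -0.08. Among the 13 genes of this list 2, 1 and 2 rose and 2, 2 and 0 fell by limma (6, 3 and 3 lower at an unadjusted p under 0.05), with medians of -0.26, 0.15 and -0.12.

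The 24 zinc finger repressors and cofactors moved both ways as well, with 2, 1 and 1 higher, 2, 3 and 0 lower by limma (3, 5 and 3 lower at an unadjusted p under 0.05), and medians of 0.06, -0.11 and -0.01. Snai1, a repressor of epithelial genes, rose in all 3 responses (0.93, 1.09 and 0.66, with adjusted p of 0.00203, 0.000809 and 0.0308), and Hic1 rose with thrombin (0.82, 0.0123). Trps1 fell with thrombin (-0.50, 0.0317) and TRAP (-0.94, 0.000605). Smaller falls were those of Ehmt1 with thrombin (-0.45, 0.0428) and of Adnp (-0.38, 0.0387) and Prdm2 (-0.63, 0.0287) with TRAP. Over the lists 43 calls were made, and 15 held with each of the 12 arrays left out in turn. Those were Id3 and Snai1 with thrombin and TRAP, Id3 after PTX, Id2 with thrombin and TRAP, Meis1, Fzd2 and Myc with thrombin, Hey2, Meox2 and Trps1 with TRAP, and Nkd2 and Wnt9a after PTX. All other calls named for the lists were lost in at least 1 of these fits. Without the 2 arrays outside their set 29 of the 43 calls held and 14 were lost, none with a change of sign. Those lost with TRAP were Fzd4 (adjusted p 0.0635), Fzd6 (0.0843), Prdm2 (0.101), Meis1 (0.105), Id1 (0.150), Tle1 (0.194) and Adnp (0.254). After PTX the lost calls were Bhlhe40 (0.0581), Meox2 (0.076), Fzd6 (0.116), Fzd2 (0.129) and Snai1 (0.188), and with thrombin Ehmt1 (0.0569) and Wt1 (0.0647). With a block for the sets 38 calls held, and those lost were Adnp, Id1 and Tle1 with TRAP and Fzd2 and Snai1 after PTX.

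**Figure D4:**
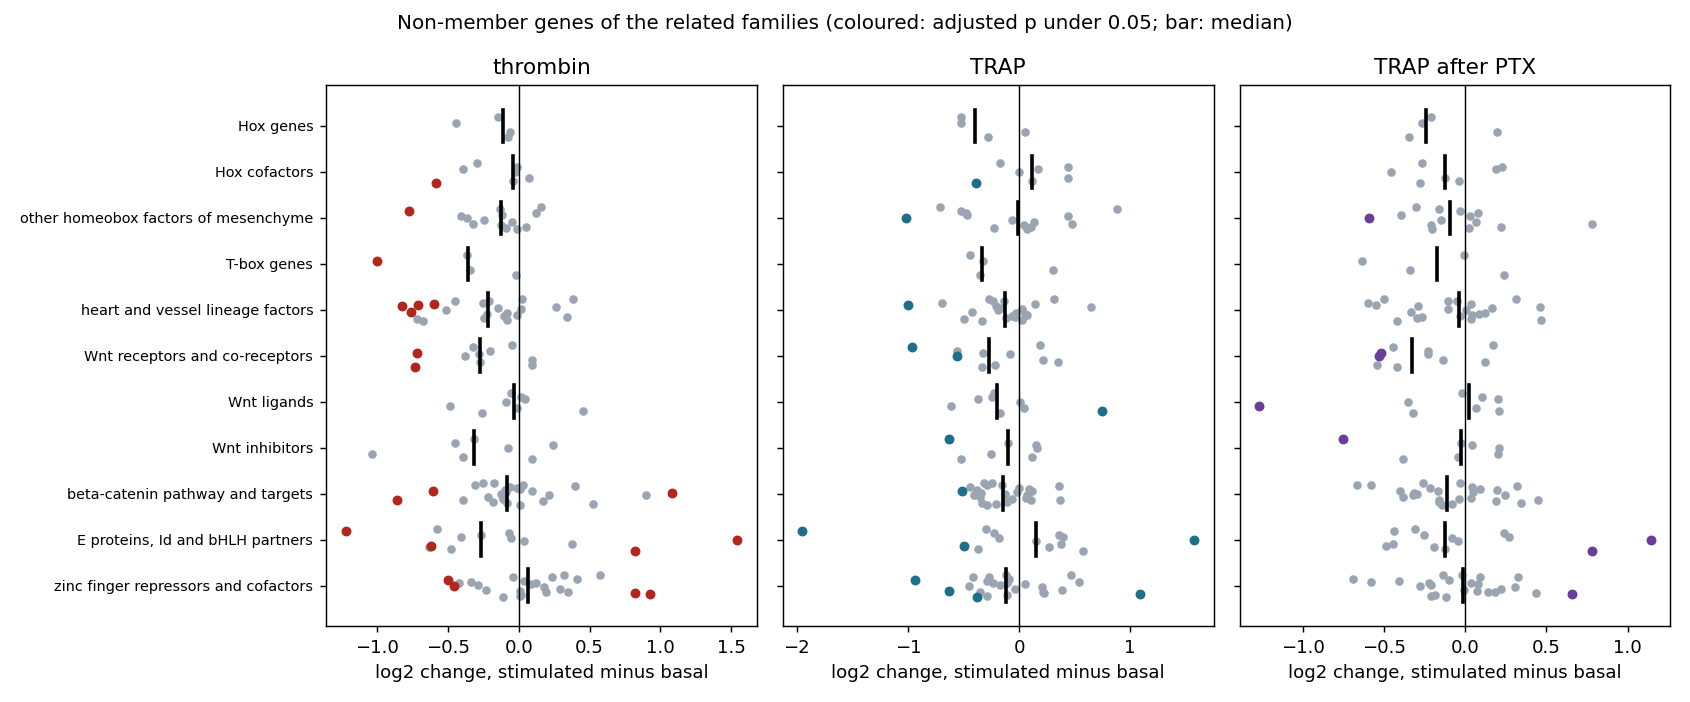
Log2 change, stimulated minus basal, of the 139 tested genes of the 11 related lists in the 3 responses, each point a gene and each bar the median of its list. Coloured points have an adjusted p under 0.05, and none of these genes is coloured on the lower side in all 3 panels. The choice of the genes largely fixes this, as the members lower in all 3 are left out of the lists.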

How the data were processed

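RNA of 12 samples was hybridised to 1-colour Affymetrix arrays. The authors deposited linear intensity values, and per the submitters' processing notes GCOS 1.4 was used. With the lowest and highest 2% of values left out every array had a mean of about 199, and no scaling was added. The 57 control probe sets were left out. Values were taken as log2(signal + 16), which understates changes of dim genes, and a filter at the 40th percentile of mean log2 signal left 18625 probe sets. A probe set was named where the annotation lists exactly 1 symbol (20826 probe sets, with 436 listing several and 9780 none), and a gene by its brightest kept probe set (9906 genes). The 6 groups shared 1 limma model (limma 3.58.1, R 4.3.3, eBayes with an intensity trend, 6 residual and 7.50 prior degrees of freedom), with 2-sided tests, Benjamini-Hochberg adjustment over all kept probe sets and a threshold of 0.05. The fit was tested on simulated data with known changes. Differences between responses of the 7 genes were planned as tests and are given without one, since the genes were chosen on the same values. The number of arrays limits the precision: the median SE of a response was 0.16.

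The genes and lists were chosen with earlier results of these data known, and so were the sets of arrays. Named genes are the 7, list genes past the threshold in at least 1 response (at most 6 a list) with some of the brightest of each list, and those most like the 7. Hoxb3 and Hoxa7 were named after their values were seen. Same-numbered arrays of the paired groups deviated together at r = 0.13, 0.10 and 0.02, so the numbers were not taken to pair the samples. As alternatives the pseudocount, the filter, the scaling, the intensity trend, blocks and the arrays in the fit were changed.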

Additional observations from a re-analysis of the deposited data

Results flagged for a closer look

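The response of Myc, a beta-catenin target and growth regulator, differed between experiments by a test of the difference itself. The thrombin response minus the TRAP response was 1.43 ± 0.16 (SE, adjusted p 0.00172 by limma), with responses of 1.08 and -0.35, and it stayed past the threshold in all 24 alternatives (1.19 to 1.58). The TRAP after PTX response of Id2, an inhibitor of E proteins, exceeded its TRAP response by 1.51 ± 0.25 (adjusted p 0.0356), with responses of -0.44 and -1.95. That difference was past the threshold in 9 of 24 alternatives (1.16 to 1.74, adjusted p 0.0278 to 0.176), and it was 1.38 (adjusted p 0.125) without the TRAP and TRAP after PTX arrays numbered 1.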

How the results depend on the processing

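The 27 changes of the member probe sets were recomputed under 24 alternatives, and all 648 values were below 0. The choice of the genes largely fixes this direction, since both stimulated arrays lay below both basal arrays in all 27. The Rreb1 differences ranged over 0.49 to 0.78 for thrombin minus TRAP and 0.48 to 0.83 for TRAP after PTX minus TRAP. Hoxa5 passed in the basal comparison in 7 of 24. Counts of probe sets past the threshold moved as follows. With only the compared arrays the thrombin response gave 576 (882 in the reported fit), the TRAP after PTX response 260 (505), TRAP after PTX minus TRAP 1 (24) and basal TRAP minus basal TRAP after PTX 201 (8). Without an intensity trend they were 334 for TRAP after PTX, 23 (99) for thrombin minus TRAP, 0 for TRAP after PTX minus TRAP and 2 for the TRAP basal groups. Without the 2 arrays outside their set they were 166 for TRAP after PTX, 9 for its difference from TRAP and 218 for the TRAP basal groups. With no filter the latter pair gave 13 and 1. The basal TRAP count was also 22 with a pseudocount of 64, 21 after quantile normalization and 0 with a block for the sets of arrays. Leaving out 1 array at a time, where a lone array takes its spread from the other groups, gave 342 to 918 for thrombin, 208 to 759 for TRAP (727), 149 to 539 for TRAP after PTX, 33 to 140 for thrombin minus TRAP, 0 to 47 for TRAP after PTX minus TRAP, 6535 to 8621 for the thrombin basal group (8645) and 0 to 49 for the TRAP basal groups. A replicate block, whose numbers do not pair the samples, gave 715, 603, 374, 82, 26, 8387 and 6 in that order. A crossed replicate block, chosen after seeing the data, gave 16 for the TRAP basal groups and 866, 770 and 510 for the responses. The causes of these shifts were not tested, beyond the fewer arrays that the smaller fits hold by construction. Centring and quantile scaling moved the median of all probe sets by less than 0.1. With 2 arrays a group, small differences are not detectable.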
